A study of Mus musculus with 18 samples.

Results

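Tmem168, Selt, Oxsr1 and Slc20a1 are 4 of the 18659 genes in the table of normalised values from mouse embryonic stem cells. They were selected on measured values of these same libraries, as transcripts that were low after a single siRNA to the cohesin subunit gene Stag1, called 5p, and not after the other siRNAs to that locus. Their values under 5p, and the contrast of 5p with the other libraries, are therefore given as a description without a test. The selection describes Tmem168, Selt and Oxsr1 more closely than Slc20a1, which was also lower than scrambled siRNA in 8 of the 9 libraries of the other siRNAs.

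E14 mouse embryonic stem cells were grown in serum (FCS) with LIF, and RNA depleted of rRNA was sequenced 24 h after siRNA transfection. All siRNAs except the controls were directed at Stag1. The 5p siRNA was 1 custom duplex, whereas 3p and SP were pools of commercial siRNAs. Every catalogue number of the 3p pool has an ending that also occurs in the SP pool, under a different prefix. The 3p and SP pools may therefore share siRNAs and are not read as independent contrasts. SATS was an enzymatically prepared esiRNA (a mixture of short fragments) to the 5′ UTR sequence of Stag1 named SATS. Controls were scrambled siRNA (scr), luciferase esiRNA and untreated cells, and no library carried a genetic change. The 16 libraries came in 3 replicate sets. Set 1 consisted of 1 scr and 3 SP libraries (1a, 1b and 1c, whose difference the sources used here do not give). Sets 2 and 3 each had 1 library for scr and for every Stag1 siRNA, with untreated cells added in set 2 and luciferase in set 3, so that 5p has 2 libraries. Nothing in the labels says whether the sets came from separate cultures, so that p-values measure only the spread between these libraries.

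Depth ranged from 9023224 to 14040830 gene-assigned reads in set 1 and from 32137666 to 45660840 in the other sets, and the ribosomal RNA gene Rn45s took 69.2% to 79.1% and 14.7% to 23.9% of them. The values are reads divided by a size factor per library. Stag1 was at 21.2% ± 3.18 of scr under 5p, 19.1% ± 2.55 under 3p, 19.6% ± 2.90 under SP and 50.1% ± 0.57 under SATS (SD, n = 2 libraries each), so that 5p, 3p and SP left nearly the same share of the targeted transcript. Embryonic stem cell markers were high in sets 2 and 3 (Pou5f1, 7128 to 9193), and the endoderm genes Gata6 (5.80 to 15.3) and Sox17 (2.80 to 8.30) were low. Genes of the mesoderm and neural lists were also detected. The mesoderm genes T and Eomes were at 149 to 288 and 92.6 to 240.0. The neural genes Pax6 and Neurod1 were at 135 to 188 and 83.2 to 224. The mesoderm gene Mixl1 (13.4 to 29.5) and the neural gene Sox1 (10.4 to 28.6) were lower, and the endoderm gene Gata4 was at 23.6 to 61.5. The summed value of 5 fibroblast markers was 6890 in the 5p library of set 2, within the 6070 to 11000 of the other libraries of that set, and 908 in set 3, within 736 to 1550. Of these 5 markers, only Col1a1 was lowest in 5p in both sets. The same held for 9.71% of genes with a mean of 50 or more. The value of Col1a1 was 1850 against 1920 to 4630 in set 2 and 155 against 221 to 367 in set 3, and its part in the results was not tested. Acta2, at 4530 in set 2 and 631 in set 3 under 5p, lay within the 3620 to 6950 and 392 to 1070 of the other libraries. In bulk RNA, fewer cells of a type and less RNA per cell cannot be told apart.

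An siRNA is loaded into an Argonaute protein as a guide strand, which cleaves transcripts that pair with it along its whole length. As with a microRNA, the seed of the guide, its bases 2 to 8 from the 5′ end, can also pair with short matches in 3′ UTRs and lower transcripts that are no target by design. The 4 proteins do different work. Tmem168 encodes a membrane protein with many membrane-spanning segments whose function is little known. Selt, now named Selenot, encodes selenoprotein T, a thioredoxin-like oxidoreductase of the endoplasmic reticulum that contains selenocysteine. Oxsr1 encodes a serine/threonine kinase that WNK kinases activate when a cell's volume or chloride level changes, and that phosphorylates cation-chloride cotransporters. Slc20a1 encodes PiT-1, a sodium-dependent importer of inorganic phosphate. They lie on 4 chromosomes in GRCm38 (mm10), at chr6:13580687-13608100 for Tmem168, chr3:58576636-58593133 for Selt, chr9:119238432-119322427 for Oxsr1 and chr2:129198764-129211616 for Slc20a1.

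The sequence that the 5p duplex was made from occurs in Stag1 at chr9:100738031-100738060 on the plus strand. It is shown, with flanking bases, because the matches in other transcripts are read against it. The 19 bases in capitals pair with the guide, begin at base 195 of the coding sequence and lie in exon 4 of transcript ENSMUST00000129269.7.

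Stag1 target of 5p: tggaattcgAGGAGCAGGTCGTGGAAGAgc

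The 7 bases that pair with guide positions 2 to 8 are GTGGAAG. They were found in the 3′ UTR of 3 of the 4 genes, taking the longest annotated 3′ UTR of each gene in GENCODE M21. Tmem168 held 2 matches, at bases 152 and 1477 of 2100 (transcript ENSMUST00000031554.8, minus strand). Selt held 3, at bases 1216, 1249 and 2085 of 2468 (ENSMUST00000107924.1, plus strand). Oxsr1 held 1, at base 2595 of 2710 (ENSMUST00000040853.10, minus strand). All are printed in the sense of the transcript, with the 7 matching bases in capitals, since they are the stretches that these transcripts share with the Stag1 target.

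Tmem168, chr6:13582626-13582655: ttcttaagtaattatgggatGTGGAAGata
Tmem168, chr6:13581301-13581330: aatattttactgtattaaaaGTGGAAGtta
Selt, chr3:58591861-58591890: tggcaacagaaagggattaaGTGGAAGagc
Selt, chr3:58591894-58591923: atgtaatcctggacttgtgaGTGGAAGtta
Selt, chr3:58592730-58592759: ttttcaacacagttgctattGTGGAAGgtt
Oxsr1, chr9:119238538-119238567: tctagaatgtttgctggatgGTGGAAGatg

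Each of the 3 transcripts held 1 match followed by A, the base that stands opposite guide position 1 in the Stag1 target. Over the 19 bases of that target, the 2 sites of Tmem168 had the same base at 11 and 8 positions, the 3 sites of Selt at 11, 11 and 9, and the site of Oxsr1 at 10, each count including the 7 of the match. Oxsr1 held 1 further match in its coding sequence, at base 1468, and 27.1% of the genes with a mean of 50 or more and a 3′ UTR held at least 1 match in theirs.

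The 3′ UTR of Slc20a1 (771 bases, ENSMUST00000028880.9, plus strand) held no such match, and neither did its coding sequence. It held 1 match to the seed of the other strand of the duplex, the passenger strand, whose 7 bases are CTGCTCC. That match is at base 468 and is printed to show the only seed match of either strand in the 3′ UTR of this transcript.

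Slc20a1, chr2:129211293-129211322: atagaaatagtcacggcactCTGCTCCctg

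Oxsr1 held 4 passenger matches in its 3′ UTR, and Tmem168 and Selt held 0. The 2 motifs were searched on the sense strand of the transcript only and do not overlap each other. A match is a run of letters and not a shown binding site, and the lack of one says only that these letters are not in the annotated UTR.

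**Figure D1:**
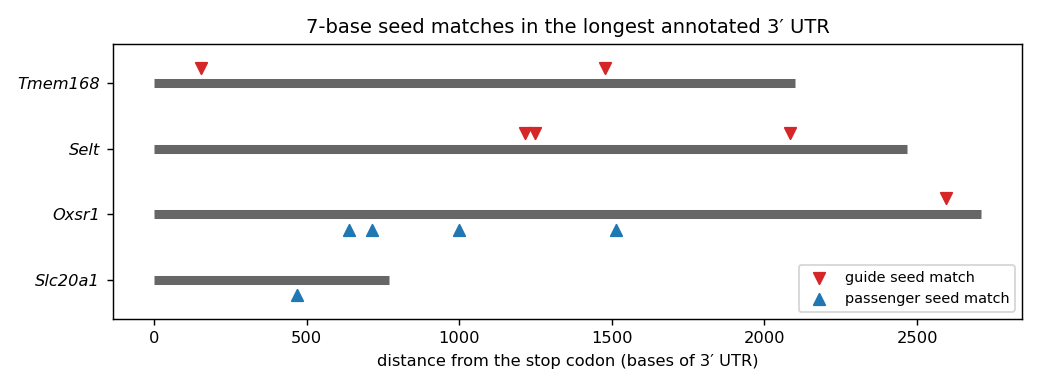
Position of 7-base matches to the guide seed (triangles pointing down) and to the passenger seed (triangles pointing up) of the 5p duplex along the longest annotated 3′ UTR of each gene, in bases from the stop codon. Tmem168 has 2 guide matches, Selt 3, Oxsr1 1 and Slc20a1 none, and the 3′ UTR of Slc20a1 is the shortest at 771 bases.

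Among the 10785 genes whose mean value reached 50 and that have an annotated 3′ UTR, 1541 (14.3%) held at least 1 guide match, 2.22% held 2 or more as Tmem168 does, and 0.325% held 3 or more as Selt does. A match followed by A was held by 4.64% and a passenger match by 18.9%. The median 3′ UTR of these genes was 1244 bases long, so that those of Tmem168, Selt and Oxsr1 were longer than the median and that of Slc20a1 was shorter. GC content was 34.0% in the 3′ UTR of Tmem168, 36.4% in that of Selt, 45.3% in that of Oxsr1 and 43.5% in that of Slc20a1, beside a median of 44.4%. The guide seed itself is CUUCCAC, which 1 of 1738 mature mouse miRNAs of RefSeq, mmu-miR-7686-5p, also has at positions 2 to 8.

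The Tmem168 transcript had a normalised value of 179.9 in the 5p library of set 2 and 150.8 in that of set 3. In the other libraries of set 2 the values were 455.9 for scr, 436.3 for SP, 391.5 for 3p, 502.3 for SATS and 375.6 for untreated cells. In set 3 they were 464.1 for scr, 456.1 for SP, 448.4 for 3p, 486.4 for SATS and 451.7 for luciferase. In set 1 they were 395.1 for scr and 432.5, 431.0 and 475.1 for the 3 SP libraries. Both 5p libraries were thus below each of the other 14, the lowest of which was the untreated library. The same held for 181 of 11026 genes with a mean of 50 or more (1.64%), all 4 selected genes among them, and nothing is read from it for genes selected on these values. Relative to scr of the same set, Tmem168 was at 36.0% ± 4.95 under 5p (SD, n = 2), and the log2 difference was −1.48 (SE 0.13). Under 3p, SP and SATS it was at 91.2% ± 7.57, 97.0% ± 1.84 and 107.5% ± 3.82 (SD, n = 2 each). None of these 3 log2 differences, −0.13, −0.04 and 0.10, exceeded 2 times its SE of 0.13, so that the order of scr, 3p, SP and SATS was not resolved. The log2 difference between 5p and 3p was −1.34 (SE 0.13).

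The values of Selt under 5p were less alike between sets than those of Tmem168. They were 1013.2 in set 2 and 648.1 in set 3 under 5p. The other libraries of set 2 gave 2231.8 for scr, 2101.9 for SP, 2138.6 for 3p, 2812.8 for SATS and 1892.2 for untreated cells. Those of set 3 gave 2321.7 for scr, 2589.9 for SP, 2596.0 for 3p, 2694.1 for SATS and 2409.8 for luciferase, and set 1 gave 1506.7 for scr and 1791.0, 1733.5 and 2134.1 for SP. The 5p libraries again did not overlap the other 14, of which scr of set 1 was lowest. Selt was at 36.6% ± 12.4 of scr under 5p (SD, n = 2), a log2 difference of −1.49 (SE 0.21). It was at 104% ± 11.3 under 3p, 103% ± 12.2 under SP and 121% ± 7.07 under SATS (SD, n = 2 each). None of these 3 log2 differences, 0.05, 0.04 and 0.27, exceeded 2 times its SE of 0.21. Of the 4 genes, Selt had the largest SD under 5p, from a log2 difference of −1.14 in set 2 and −1.84 in set 3. The log2 difference between 5p and 3p was −1.54 (SE 0.21).

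Oxsr1 had the smallest log2 difference of the 4 under 5p and the smallest SE. Its value was 1541.5 in the 5p library of set 2 and 1459.0 in that of set 3. The other libraries of set 2 gave 2621.0 for scr, 2601.4 for SP, 2480.6 for 3p, 2698.8 for SATS and 2574.7 for untreated cells. In set 3 the values were 2649.0 for scr, 2912.9 for SP, 2846.6 for 3p, 2810.7 for SATS and 2563.8 for luciferase, and in set 1 they were 2504.5 for scr and 2876.9, 2781.9 and 2859.0 for SP. The 14 libraries without 5p spanned only 2480.6 to 2912.9 and both 5p libraries lay far below them. Oxsr1 was at 57.0% ± 2.62 of scr under 5p (SD, n = 2), and the log2 difference was −0.81 (SE 0.10). Under 3p, SP and SATS it was at 101% ± 9.12, 104.6% ± 7.57 and 104.6% ± 2.19, and none of the 3 log2 differences exceeded its SE of 0.10. The log2 difference between 5p and 3p was −0.82 (SE 0.10).

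Slc20a1 was lowest under 5p and intermediate under the other siRNAs. It had a value of 2249.3 in the 5p library of set 2 and 1814.3 in that of set 3. In set 2 it was 3896.0 in scr and 3864.5 in untreated cells, against 3295.3 in SP, 3086.1 in 3p and 3474.9 in SATS. In set 3 it was 4056.0 in scr and 3944.1 in luciferase, against 3244.9 in SP, 2936.9 in 3p and 3275.1 in SATS. Within sets 2 and 3 the 4 control libraries were thus above all 6 libraries of SP, 3p and SATS, and these 6 were above 5p. The share of all genes with this order was not counted, and nothing is read from it for a gene selected on these values. Set 1 did not show the same order, since scr was at 3395.2 and the 3 SP libraries were at 2914.5, 3695.3 and 3036.1. Slc20a1 was at 51.2% ± 9.19 of scr under 5p (log2 difference −0.98, SE 0.11), 75.8% ± 4.81 under 3p, 82.3% ± 3.25 under SP and 85.0% ± 6.01 under SATS (SD, n = 2 each). The log2 differences were −0.40 under 3p, −0.28 under SP and −0.24 under SATS, each with an SE of 0.11, and these 3 differed from each other by less than 2 times that SE. The log2 difference between 5p and 3p, −0.58 (SE 0.11), was the smallest of the 4 genes.

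**Figure D2:**
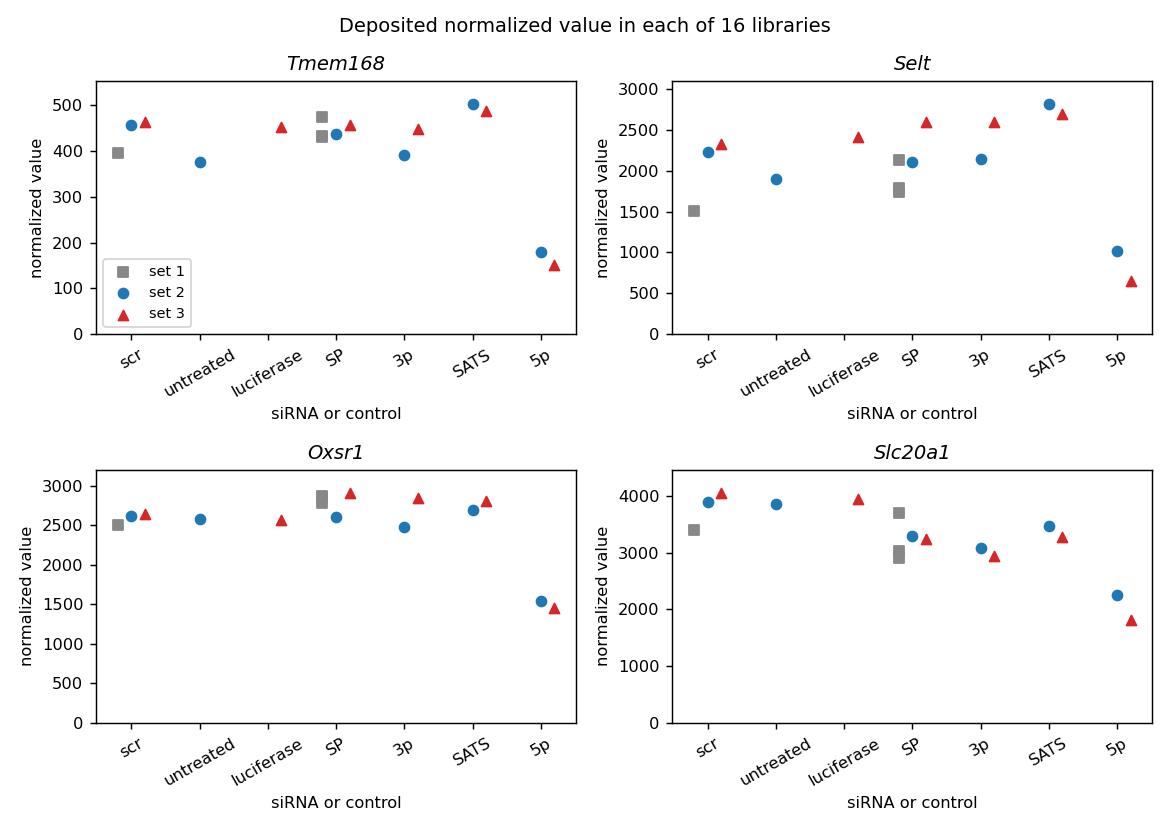
Deposited normalised value of each gene (vertical axis, from 0) in each of the 16 libraries, by siRNA or control (horizontal axis). Squares are set 1, circles set 2 and triangles set 3; the 2 points of 5p are the lowest in each panel, and for Slc20a1 the points of SP, 3p and SATS in sets 2 and 3 lie between 5p and the controls.

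The SP libraries of set 1 offered a further look at the transcripts without 5p, at lower depth and against 1 scr library. Stag1 was at 25.4% to 32.8% of scr in these libraries, beside 19.6% under SP in sets 2 and 3. Tmem168 was at 109% to 120% of scr of that set, Selt at 115% to 142%, Oxsr1 at 111% to 115% and Slc20a1 at 85.8% to 109%. Reads in the libraries of set 1 were few for Tmem168, at 59 to 134 per library, against 326 to 1424 in sets 2 and 3. In the 5p libraries the reads numbered 326 and 377 for Tmem168, 1401 and 2123 for Selt, 3154 and 3230 for Oxsr1 and 3922 and 4713 for Slc20a1, so that none of the 4 was near the smallest number counted as detected, 3 reads.

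**Figure D3:**
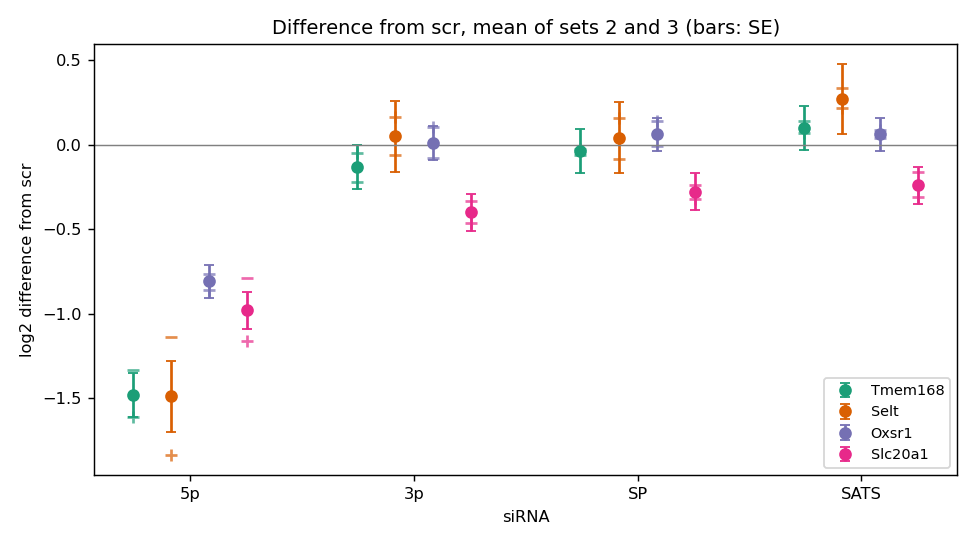
Log2 difference from scr for each gene under 5p, 3p, SP and SATS siRNA. Circles are the mean of sets 2 and 3 with the SE of the fit as bars, dashes are set 2 and plus signs are set 3; under 5p the 4 genes lie between −1.49 and −0.81, and under the other siRNAs between −0.40 and 0.27.

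The number of genes past the threshold depended on whether the replicate set was a term of the fit, and the 4 genes are read against it. In limma over the 10 libraries of scr, SP, 3p, 5p and SATS in sets 2 and 3, 2 of 16490 genes were lower under 5p at an adjusted p under 0.05 (0.0121%), namely Stag1 and Tmem168. Leaving out any 1 of the 10 libraries left Stag1 alone. Under 3p and SP the only gene called was Stag1 (0.00606% each). Under SATS 0 genes were called (0.0%) by limma and by edgeR, 3 by DESeq2, and the unadjusted p of 650 genes was under 0.05. With the set as a block, 282 genes (1.71%) were lower under 5p, all 4 genes among them, and 0.237%, 0.515% and 0.746% of genes were lower under 3p, SP and SATS, none of the 4 genes among them. Without the scr library of set 3, the scr library of set 2 or the 5p library of set 3, the blocked fit called 20, 79 and 56 genes under 5p in either direction in place of 391, and the 4 genes were in each of these counts. The lower calls of the other siRNAs also depended on single libraries. Without the scr library of set 2 or of set 3, 5 and 1 genes were lower under 3p in place of 39, 16 and 6 under SP in place of 85, and 1 and 1 under SATS in place of 123. The count under 3p was 22 without either SP library and 10 without the 3p library of set 3, that under SP was 30 and 17 without the SP library of set 2 and of set 3, and that under SATS was 1 without the SATS library of set 3. As the 4 genes were selected on this contrast, nothing is read from their calls.

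The gap was used to describe how far 5p stood below every other library. It is the log2(value + 1) of the lowest other library of a set minus that of the 5p library, and the smaller gap of sets 2 and 3 was ranked over the 11026 genes whose mean value reached 50. A gap above 0 in both sets, so that 5p was lowest in each, held for 1071 genes (9.71%), including the 4. Tmem168 ranked 2 (gap 1.06), Selt 4 (0.90), Oxsr1 5 (0.69) and Slc20a1 37 (0.46). Just above Slc20a1 were Pgf and Cox10 (0.46 each), and just below it were Kctd9 (0.46) and Lsm12 (0.45), so that no step in the gap separates Slc20a1 from genes not among the 4. The other genes within the first 13 ranks were Sycp3, Bahd1, Pip4k2c, Ccdc91, Csnk1a1, Snx7, Tsnax, Dynll2, Tsr2 and Lfng. Sycp3, which ranked 1, encodes a component of the synaptonemal complex of meiotic chromosomes. Its log2 difference from scr was −1.54 under 5p but 0.34, 0.39 and 0.72 under 3p, SP and SATS. Bahd1, a heterochromatin protein gene, had a log2 difference of −1.06 under 5p and 0.08, 0.17 and 0.09 under the others.

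**Figure D4:**
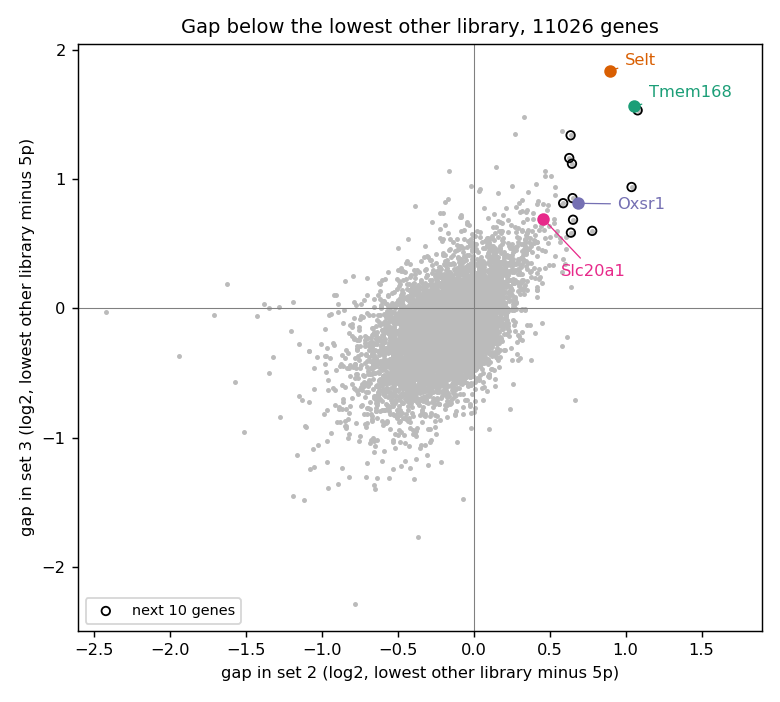
Gap in set 2 (horizontal axis) and set 3 (vertical axis) of 11026 genes, both on the log2 scale, where above 0 the 5p library is the lowest of its set. Grey points are single genes, open circles the other 10 genes of the first 13 ranks and coloured points the 4 genes; Tmem168 and Selt lie at the upper right edge, and Slc20a1 lies nearer to the body of genes.

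The guide match was also held by other genes with large gaps. Of the 10 genes just named, 8 held at least 1 guide match in the 3′ UTR, the exceptions being Ccdc91 and Tsnax. Bahd1 held 3 like Selt. Of the 33 genes besides the 4 that ranked above Slc20a1, 23 held a match, beside 14.3% of all genes with a 3′ UTR. Of the 268 genes besides the 4, among those 10785, that were lower under 5p with the set as a block, 130 (48.5%) held one. With the 4 genes likewise left out, the median log2 difference from scr under 5p was 0.01 for 9243 genes with no match, −0.06 for 1301 genes with 1 match and −0.12 for 237 genes with 2 or more. Genes whose match was followed by A, as is the case in Tmem168, Selt and Oxsr1, had a median of −0.11 (497 genes). Under 3p the medians of the 3 groups were 0.00, 0.00 and −0.01, and under SP 0.00, 0.00 and 0.01. Under SATS they were 0.01, −0.01 and −0.04. For the passenger match, the one Slc20a1 holds, the median under 5p was −0.02 for 2031 genes with a match and 0.01 for 8750 without. These medians are descriptions without a test, and genes with more matches had longer 3′ UTRs, with a median of 1078 bases for no match, 2348 for 1 and 3934 for 2 or more.

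**Figure D5:**
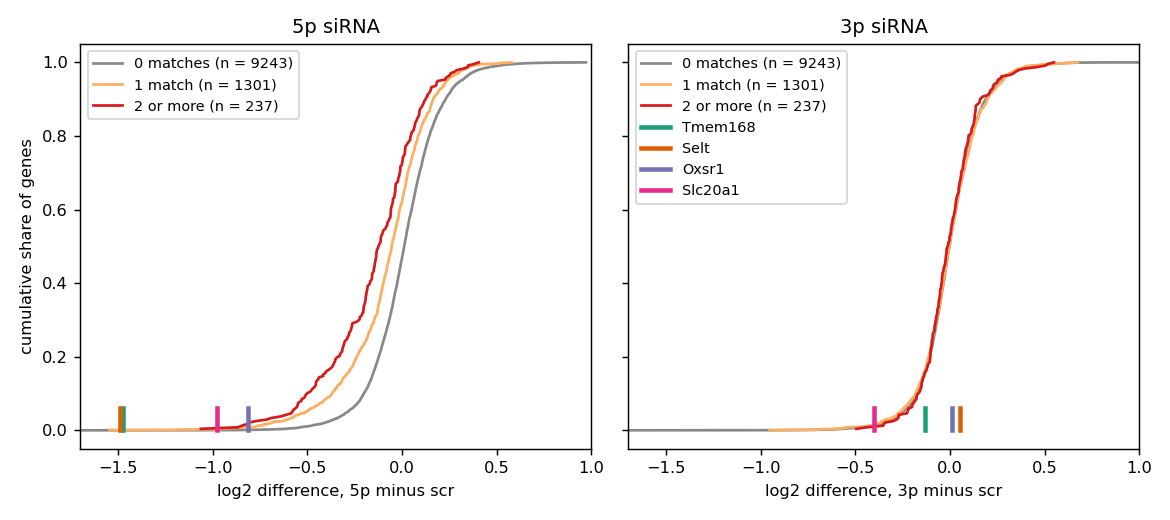
Cumulative share of genes (vertical axis) by log2 difference from scr (horizontal axis) under 5p, left, and 3p, right, for genes with 0, 1 and 2 or more guide matches in the 3′ UTR, the 4 genes left out. Coloured ticks mark the 4 genes; under 5p the curves are set apart, with medians of 0.01, −0.06 and −0.12, and under 3p they lie on each other.

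Correlations between the 4 genes were taken with and without the 5p libraries. Those with 5p were bound to be high, since the genes were selected on their 5p values. Over the 10 libraries of sets 2 and 3 other than scr, each taken as the log2 difference from scr of its set, the correlation between 2 of the genes ranged from 0.844 (Oxsr1 and Slc20a1) to 0.986 (Tmem168 and Selt). Without the 2 libraries of 5p it was 0.92 for Tmem168 and Selt, 0.65 for Selt and Oxsr1, 0.57 for Tmem168 and Oxsr1, and −0.20, −0.39 and −0.54 for Slc20a1 with Tmem168, Selt and Oxsr1. The libraries of a set share the scr library they are set against, so these values are descriptions. Over the same 10 libraries, 5p included, the genes most like the mean of the 4 were Csnk1a1 (r = 0.994), Uso1 (0.989), Fam179b (0.984), Clint1 (0.983) and Cbx5 (0.983). Csnk1a1 encodes casein kinase 1 alpha and had a log2 difference of −0.97 under 5p, −0.06 under 3p, −0.08 under SP and 0.14 under SATS. The first 4 of these 5 genes held 1 guide match each, followed by A, and Cbx5 held none.

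Genes that work with the 4 proteins were described by lists of their pathways. No gene of the 4 lists was called under any of 5p, 3p, SP and SATS by limma without the block, edgeR without the block or DESeq2. Under 5p an unadjusted p under 0.05 was reached by 2 of 27 genes of selenoproteins and selenocysteine machinery, 0 of 21 thiol oxidoreductases of the endoplasmic reticulum, 2 of 21 genes of the WNK pathway and its cotransporters and 0 of 20 genes of phosphate transport and sensing, the 4 selected genes left out. Over all genes this share was 3.63% (598 of 16490). The median log2 difference of these lists under 5p was 0.04, 0.05, −0.01 and −0.03, beside 0.01 for all 16490 genes.

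With the set as a block, 2 of 27 selenoprotein genes, 0 of 21 thiol oxidoreductases, 1 of 21 genes of the WNK list and 2 of 20 of the phosphate list were called by limma under 5p, beside 2.37% of all genes (391 of 16490). Sep15, now Selenof, an oxidoreductase of the endoplasmic reticulum like Selt, was lower (log2 difference −0.57, limma adjusted p = 0.00746). Its values were 1297.6 and 1429.0 under 5p against 1911.3 and 2137.3 under scr, and its 3′ UTR held 1 guide match. Sepp1, a secreted selenium carrier, was higher (log2 difference 0.68, limma adjusted p = 0.0421, not called by edgeR with the block, which called Gpx2 instead). Cab39l, whose protein is of the MO25 family that activates kinases such as that of Oxsr1, was lower (log2 difference −0.57, limma adjusted p = 0.0176) and held 1 guide match. Of the phosphate list, Ppip5k2, a kinase of inositol pyrophosphate synthesis, was lower (log2 difference −0.40, limma adjusted p = 0.0426), as was Slc37a3, a sugar phosphate exchanger family member (log2 difference −0.33, limma adjusted p = 0.0402), and neither held a guide match. Without the scr library of set 2, the scr library of set 3 or the 5p library of set 3, none of these 5 genes was called, and Slc37a3 and Sepp1 were also not called without either SP library or without the 5p library of set 2. Under SATS with the block, 2 of 21 thiol oxidoreductases, Tmx1 and Tmx3, were called and were higher, beside 2.64% of all genes (436 of 16490). Neither was called without the scr library of set 2, the scr library of set 3 or the SATS library of set 3, which left 4, 8 and 3 genes called.

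The nearest relatives of Oxsr1 and Slc20a1 were not lower in the same way. Stk39 is the other kinase of the Oxsr1 type. Its log2 difference from scr was 0.38 under 5p, 0.45 under 3p, 0.31 under SP and 0.06 under SATS. For 5p its SE was 0.59 without the block and 0.14 with the block (limma with the block, adjusted p = 0.192). Slc20a2, the other phosphate importer of the family, had −0.04 under 5p, −0.02 under 3p, 0.12 under SP and −0.05 under SATS. For 5p its SE was 0.10 without the block and 0.076 with the block (limma with the block, adjusted p = 0.858). Neither held a guide match in its 3′ UTR. On either side of each of the 4 genes, the nearest gene without overlap and with a mean value of at least 50 was taken. These neighbours lay from 13507 (Myd88, near Oxsr1) to 491418 bases away (Tmem106b, near Tmem168), so that genes lower in value may lie between. Their log2 differences under 5p ran from −0.54 (Siah2, near Selt) to 0.33 (B630005N14Rik, near Tmem168). None of the 8 neighbours was called by limma or edgeR with or without the block or by DESeq2, and 0 had an unadjusted p under 0.05 in limma without the block. Over all genes under 5p, 2.37% were called by limma with the block and 3.63% had such an unadjusted p. With 8 genes, counts of 0 are near these shares, and nothing is read from them.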

How the data were processed

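The 4 genes and all lists were chosen with earlier results of these data known. Reads were aligned by the authors (HISAT2, mm10) and assigned to genes by featureCounts. For all sets the authors deposited a normalised signal, in which counts were divided by DESeq2 (1.14.1) size factors. For set 1 they also deposited CPM of the effective library size (edgeR 3.16.5), likewise a normalised signal. Reads were recovered from the first table by dividing each signal by that of 1 read (whole within 0.01). PCR reads are not independent molecules, so that depth bounds counting error only. Samples grown in 2i were not analysed here.

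The test was limma 3.58.1 (R 4.3.3; lmFit, eBayes with trend) on log2(value + 1), for genes whose values summed to 10 or more, with Benjamini-Hochberg adjustment. Fold changes on this scale understate those of low genes. edgeR 4.0.16 and DESeq2 1.42.0 on the recovered reads, the set as a block, pseudocounts of 0.1 and 10, other filters and controls, and each library left out were alternatives. The limma fits with and without the block, and the edgeR fit without it, were tested on simulated data. The DESeq2 fit and the blocked edgeR fit were not. The simulated counts held no difference between sets, so they cannot show how the fits with and without the block act where sets differ. Same-numbered libraries deviated together. The correlation was 0.81 to 0.93 in 10 pairs of groups of sets 2 and 3. It was 0.77 to 0.84 in scr and SP over 3 sets. The set numbers in the labels were therefore taken to pair the libraries, which the blocked fit takes into account. The reported fit and the SEs printed for the 4 genes do not. With the block these SEs under 5p were 0.11 for Tmem168, 0.16 for Selt, 0.08 for Oxsr1 and 0.09 for Slc20a1.

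3′ UTRs were read from GENCODE M21 (GRCm38), using the longest per gene, after matching 517 of 18659 symbols through RefSeq synonyms; 205 were unmatched. The seeds were taken from the duplex named in the methods. Genes named were the 4 genes and Stag1, the 10 others of largest gap, the 5 most alike over 10 libraries, the 2 largest rises and falls and any call of each list, paralogs and neighbours, with a mean value of at least 50. From this rule, list genes that passed no test are given by counts.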

Additional observations from a re-analysis of the deposited data

How the results depend on the processing

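The 2 5p libraries, and 1 library per siRNA and set, limit every value of the 4 genes. Their log2 differences under 5p kept their direction under all alternatives run. As the genes were selected on these same libraries, nothing is read from that. Leaving out a set, they were −1.62 to −1.34 for Tmem168, −1.84 to −1.14 for Selt, −0.86 to −0.77 for Oxsr1 and −1.16 to −0.79 for Slc20a1. The number of genes called under 5p, 2 in the reported fit, was 391 with the replicate block, 397 with the replicate block in edgeR, 66 with DESeq2, 1 with no filter on low values, 27 with untreated and luciferase libraries as further controls, and 1 to 1 with each library left out. In the same order of the settings that moved them, calls under 3p were 47, 50, 8 and 2 (1 reported; block, edgeR with block, DESeq2, further controls) and under SP 123, 134, 21 and 4 (1 reported). Under SATS they were 436, 550 and 3 (0 reported; block, edgeR with block, DESeq2). The cause was not tested. The rank of Tmem168 by the gap was 1 with a pseudocount of 10, that of Selt was 1 in set 3 alone, that of Oxsr1 was 32 in set 3 alone, and that of Slc20a1 was 49 in set 2 alone and 56 in set 3 alone. The share of genes with a guide match in the 3′ UTR, 14.3%, was 15.3% over the union of annotated UTRs, 44.8% for the hexamer of guide positions 2 to 7 and 18.9% for the passenger strand, and 3, 3 and 2 of the 4 genes held these. In the blocked fit, counts under 5p without 1 library, an alternative chosen after the data were seen for all 4 siRNAs, ran from 20 to 528.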
